A study of Arabidopsis thaliana with 39 samples.

Results

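S8H (AT3G12900), the hydroxylase that turns scopoletin into fraxetin, and BGLU42 (AT5G36890), a beta-glucosidase, were followed in Arabidopsis roots during the first hours without phosphate, without iron or without both. They are the rows of the deposited expression table whose annotation names 1 of these genes and no other, which gave 2 of 28501 rows, 1 for each gene. All plants were Col-0 wild type, and the RNA came from roots of plants grown for 10 days with 1 mM phosphate. One group was taken at the time of transfer (time 0), and 12 groups were taken 3, 6 or 9 h after transfer to full medium, to medium lacking phosphate, to medium lacking iron or to medium lacking both. Each of the 13 groups holds 3 whole-transcript arrays, 39 in all, and no label states that they were grown apart from each other. The p-values therefore speak of the scatter among these arrays, part of which may be technical.

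Scopoletin, fraxetin and sideretin are coumarins, phenolic compounds that roots make from feruloyl-CoA and release into the soil, where fraxetin and sideretin bind and reduce ferric iron. F6'H1 and COSY make scopoletin, S8H hydroxylates it to fraxetin, CYP82C4 makes sideretin from fraxetin, and the transporter ABCG37 (PDR9) exports them. Coumarins are kept as glucosides inside the cell, and BGLU42 is known for removing that sugar before release. In iron-deficient roots S8H is known to be induced through the transcription factor FIT. BGLU42 acts downstream of MYB72, a regulator that also serves the systemic resistance induced by beneficial root bacteria.

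Neither gene was called in any comparison between media or times. The deposited values are on a scale taken as log2 (the base is inferred from the range of the values), a difference of 1 is then a doubling, and a call is an adjusted p under 0.05 in limma, with the Benjamini-Hochberg adjustment over all 28501 rows of a comparison. Over the 13 groups as a whole, limma's F test gave adjusted p = 1 for S8H and 0.967 for BGLU42, against 1.47% of all rows called. The 2 genes sit at different points of the array's range. S8H averaged 1.77 over the 39 arrays, and 26.6% of rows averaged less. The first quartile of the single arrays lay between 1.60 and 1.84, so S8H was a dim row, on which this scale may understate a fold change. By how much was not measured here. BGLU42 averaged 4.84, with 69.9% of rows below it. In whole roots, fewer cells that express a gene and less of its RNA per cell cannot be told apart.

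Of the root markers fixed for the check of the tissue, 2 of 12 were measured on a row naming them alone. PYK10 (BGLU23), the main beta-glucosidase of root endoplasmic reticulum bodies, lay between 11.1 and 11.7 in every array, and the root hair expansin gene EXPA7 between 4.14 and 6.18. Of the shoot markers 3 of 8 were measured so, and RCA, which encodes Rubisco activase, lay between 5.68 and 8.50, LHCB4.1 between 4.02 and 6.86 and LHCB4.2 between 2.23 and 5.81. None of these 5 markers was called in any of the 42 comparisons. With the replicate number as a block LHCB4.2 was called lower at 9 h than at 3 h over all media, by -1.11 (limma adjusted p = 7.5e-05, against 0.139 without the block), and also lower at 9 h than at 6 h and at time 0 (0.0423 and 0.0321). RCA was called lower at 9 h than at 3 h too, by -0.57 (0.0125 against 0.545). The block also called PYK10 lower at 6 h and at 9 h than at 3 h, by -0.18 and -0.17 (adjusted p = 0.0418 and 0.0361). The share of all rows called with the block is not given here. The part of these markers in the values of S8H and BGLU42 was not tested. Array medians lay between 3.34 and 3.45.

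S8H had its highest group mean in roots at the time of transfer, at 1.94, 2.32 and 1.84 in replicates 1, 2 and 3. In full medium it stood at 2.12, 1.69 and 1.67 at 3 h, at 1.72, 2.03 and 1.40 at 6 h and at 1.66, 1.72 and 1.70 at 9 h. The arrays of 9 h all lay below those of time 0, while those of 3 and 6 h overlapped with them. In the comparison of 9 h with time 0, 8.92% of all rows had their groups apart in that direction, so such a separation was frequent there.

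Without iron, the condition under which this hydroxylase is known to accumulate, S8H stood at 1.83, 1.73 and 1.59 at 3 h, at 1.59, 2.60 and 1.59 at 6 h and at 1.48, 1.94 and 1.67 at 9 h. A single array, replicate 2 at 6 h, gave the highest value of the whole series, and the other 2 arrays of that group lay among those of full medium. Over all rows that array also had the highest first quartile of the 39 arrays, 1.837, and the lowest upper quartile, 5.099. Replicate 2 without phosphate at 3 h, with S8H at 2.25, had quartiles of 1.792 and 5.102. Replicate 2 of time 0, with S8H at 2.32, had quartiles of 1.683 and 5.224. The part of these quartiles in the single values of S8H was not tested. The log2 difference from full medium was -0.11, 0.21 and 0.0022 at 3, 6 and 9 h (SE 0.25 each, limma adjusted p = 1 at each time). Without replicate 2 of the iron-free group the difference at 6 h was -0.12. The 95% intervals ran from -0.62 to 0.39 at 3 h, from -0.29 to 0.72 at 6 h and from -0.50 to 0.51 at 9 h on this scale, which for so dim a row sets no ceiling on the fold of the transcript itself. Of all rows 0% were called in this comparison at each of the times.

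Without phosphate S8H stood at 1.50, 2.25 and 1.41 at 3 h, at 1.51, 1.45 and 1.83 at 6 h and at 1.44, 2.03 and 1.31 at 9 h. Its difference from full medium was -0.11, -0.12 and -0.10 (SE 0.25 each, limma adjusted p = 0.999, 1 and 1), with arrays of both media overlapping at each time. Of all rows 0%, 0% and 0.00702% were called at 3, 6 and 9 h.

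Without both nutrients S8H stood at 1.46, 1.96 and 1.735 at 3 h, at 1.996, 2.08 and 1.80 at 6 h and at 1.82, 2.19 and 1.38 at 9 h. The difference from full medium was -0.11, 0.24 and 0.10 (limma adjusted p = 0.999, 1 and 1), and 0.0246%, 0% and 0.00351% of all rows were called. The interval at 6 h reached 0.75 on the deposited scale. At 6 h the double deprivation stood 0.36 above the lack of phosphate alone (SE 0.25, adjusted p = 1), with 0% of rows called.

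Averaged over the times, S8H differed from full medium by -0.11 without phosphate, by 0.03 without iron and by 0.08 without both (SE 0.14 each, limma adjusted p = 1 each), with 0%, 0.0105% and 0.0105% of rows called. Setting all 18 arrays without iron against the 18 transferred arrays with iron, at matched time and phosphate, gave 1.80 ± 0.30 (SD, n = 18) against 1.69 ± 0.27. The difference was 0.11 with an interval from -0.10 to 0.32 (limma adjusted p = 1), and 0.0737% of rows were called (0.0632% of rows higher without iron, 0.0105% lower). The same comparison for phosphate gave -0.03, with an interval from -0.24 to 0.17 (adjusted p = 1) and 0.0947% of rows called (0.0877% higher without phosphate, 0.00702% lower). The phosphate by iron interaction was 0.15 in the mean over the times (SE 0.20, adjusted p = 1), and 0% of rows were called there.

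**Figure D1:**
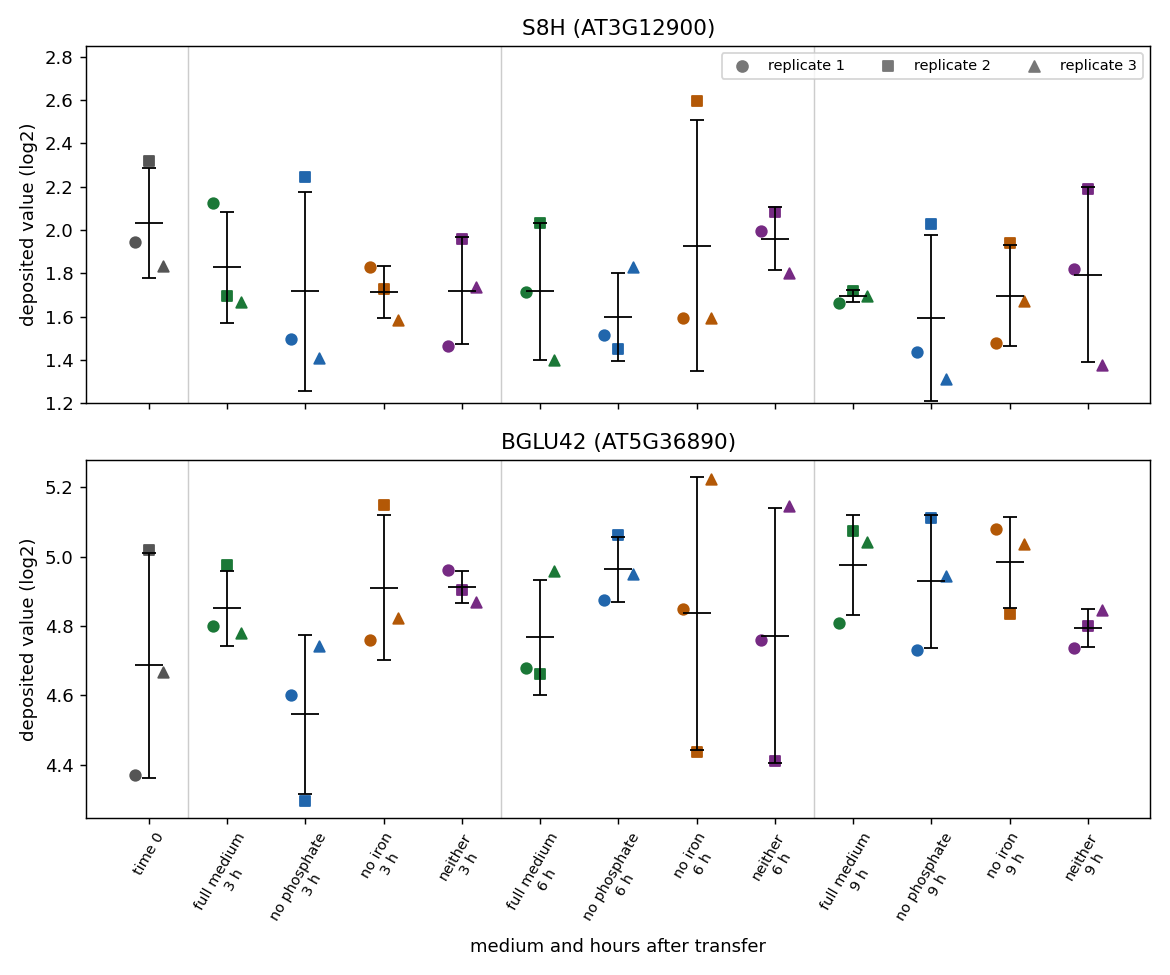
Deposited log2 values (vertical axes) of S8H and BGLU42 in all 39 arrays by medium and hours after transfer, with symbols for the replicate number, a horizontal dash for the mean of 3 arrays and bars of 1 SD. The groups overlap broadly for both genes, and the single highest S8H value, 2.60, is replicate 2 without iron at 6 h.

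The order of the 13 group means of S8H ran from time 0 at 2.03 ± 0.25 (SD, n = 3) through both nutrients absent at 6 h (1.96 ± 0.15) and no iron at 6 h (1.93 ± 0.58) to no phosphate at 6 h (1.60 ± 0.20) and at 9 h (1.59 ± 0.38). Neighbours in that order were at most 0.1012 apart, less than the SE of a difference between 2 groups (0.25), so the order of neighbours is not resolved. The distance from the first to the last group was 0.44.

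In the mean of the 4 media S8H differed from time 0 by -0.29 at 3 h, -0.23 at 6 h and -0.34 at 9 h (SE 0.20 each). None of these was called (limma adjusted p = 0.584, 0.74 and 0.473), while 2.07%, 2.56% and 3.03% of all rows were. Between times, over all media, it differed by 0.06 from 3 to 6 h and by -0.11 from 6 to 9 h (adjusted p = 0.896 and 0.788), with 1.19% and 0.379% of rows called.

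BGLU42 stood at 4.37, 5.02 and 4.67 at time 0. In full medium it was 4.80, 4.97 and 4.78 at 3 h, 4.68, 4.66 and 4.96 at 6 h and 4.81, 5.07 and 5.04 at 9 h. All of these overlapped with the arrays of time 0.

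Without phosphate BGLU42 stood at 4.60, 4.29 and 4.74 at 3 h, at 4.88, 5.06 and 4.95 at 6 h and at 4.73, 5.11 and 4.94 at 9 h. At 3 h its 3 arrays all lay below the 3 of full medium, as those of 4.11% of all rows did, and 8.83% of rows had a smaller p in this comparison. The difference was -0.31 at 3 h (SE 0.18, interval from -0.67 to 0.06, limma adjusted p = 0.999), 0.20 at 6 h and -0.05 at 9 h (adjusted p = 1 at both). Without replicate 2 of the deprived group the difference at 3 h was -0.18. The change of this effect from 3 to 6 h was 0.50 (SE 0.25, unadjusted p = 0.0559, limma adjusted p = 1), and 0% of rows were called in it.

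Without iron BGLU42 stood at 4.76, 5.15 and 4.82 at 3 h, at 4.85, 4.44 and 5.23 at 6 h and at 5.08, 4.83 and 5.04 at 9 h. Against full medium the log2 differences were 0.06, 0.07 and 0.0084, in order of time (SE 0.18 each, adjusted p = 1 each in limma). The 95% intervals reached 0.42, 0.43 and 0.37 upward, the highest of these being 1.35-fold. Their width comes from a spread shared by all groups, while the 3 arrays at 6 h had an SD of 0.39. The bound at 6 h is therefore no ceiling on a rise. At 3 and 9 h the 3 arrays had SDs of 0.21 and 0.13, and those bounds speak only of the scatter among these arrays.

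Without both nutrients BGLU42 stood at 4.96, 4.90 and 4.87 at 3 h, at 4.76, 4.41 and 5.15 at 6 h and at 4.74, 4.80 and 4.85 at 9 h. The difference from full medium was 0.06, 0.0046 and -0.18 (limma adjusted p = 0.999, 1 and 1). The arrays of 6 h spanned those of full medium on both sides. At 3 h the double deprivation stood 0.37 above the lack of phosphate alone (SE 0.18, limma unadjusted p = 0.0486, adjusted p = 0.804), with the groups apart, as those of 5.1% of rows were in that direction, and 0.0211% of rows called. In the fit printed here this was the one unadjusted p under 0.05 among the 42 comparisons of BGLU42, and it rests on the same low group without phosphate at 3 h. S8H had none in that fit.

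Averaged over the times, BGLU42 differed from full medium by -0.05 without phosphate, by 0.05 without iron and by -0.04 without both (SE 0.10 each, limma adjusted p = 1 each). The 18 arrays without iron stood at 4.87 ± 0.22 (SD, n = 18) against 4.84 ± 0.21 with it, a difference of 0.03 with an interval from -0.12 to 0.18 (limma adjusted p = 1). In fold terms the interval runs from 0.92 to 1.13. Phosphate gave -0.07, from -0.22 to 0.08 (adjusted p = 1).

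**Figure D2:**
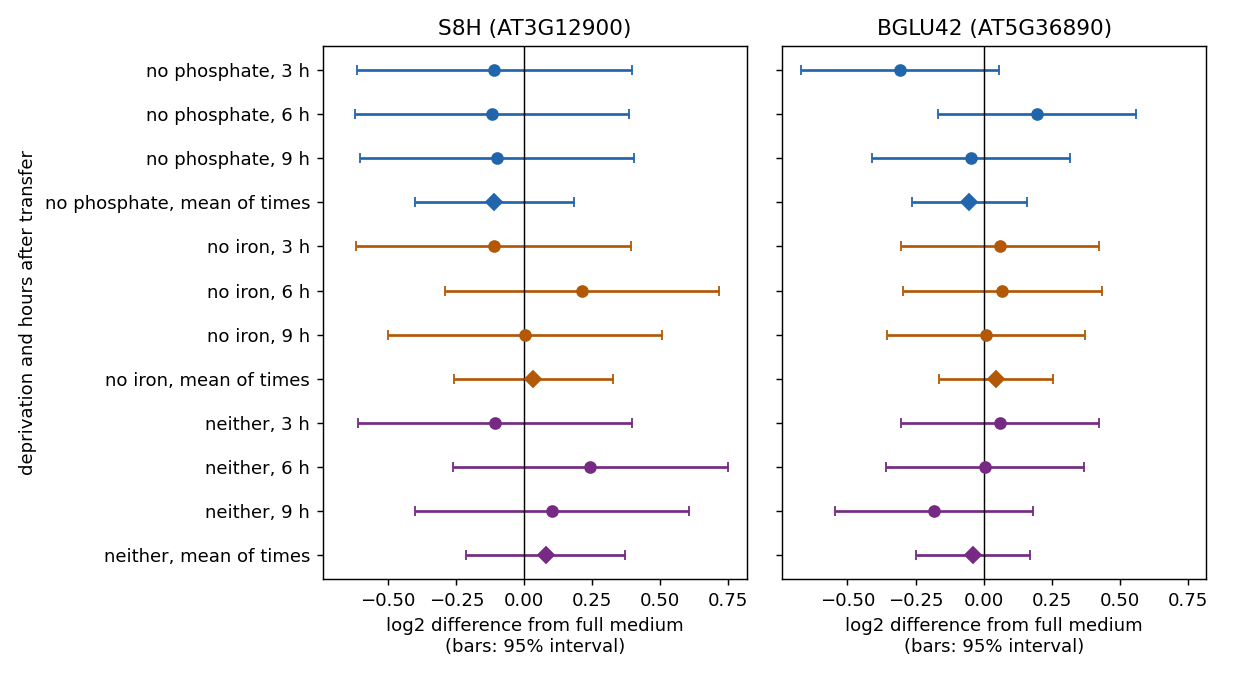
Log2 differences of S8H and BGLU42 from full medium at the same time (horizontal axes) for each deprivation at 3, 6 and 9 h (circles) and in the mean of the times (diamonds), with 95% intervals from limma. All 24 intervals include 0, and those of S8H, the dimmer and more variable row, are wider.

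The group means of BGLU42 ran from no iron at 9 h (4.98 ± 0.13, SD, n = 3) and full medium at 9 h (4.98 ± 0.14) down to time 0 (4.69 ± 0.32) and no phosphate at 3 h (4.55 ± 0.23). The widest gap between neighbours was 0.14, between the last 2, less than the SE of a difference between 2 groups (0.18). In the mean of the media BGLU42 differed from time 0 by 0.12, 0.15 and 0.23 at 3, 6 and 9 h (SE 0.14 each, limma adjusted p = 0.807, 0.785 and 0.501).

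The level of S8H went with the replicate number. In 10 of 13 groups replicate 2 held the highest S8H value, with a mean deviation of 0.23 from the group mean, and in 9 replicate 3 held the lowest, with a mean deviation of -0.16. For BGLU42 the mean deviations were -0.07, -0.01 and 0.08 for replicates 1, 2 and 3. What a replicate number stands for is not given in the labels. Each group holds replicates 1, 2 and 3, so a shift common to a number in all groups drops out of the differences above. It does bear on their SEs, which are printed from the fit without a block. A shift that varies between groups was not tested. The fit with the number as a block called neither gene in any comparison.

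The deviations of S8H and BGLU42 from their group means were set against each other across arrays. Over the 39 deviations Pearson's r was -0.39 (permutation p = 0.0839) and Spearman's rho -0.39 (permutation p = 0.0439), with 100000 permutations within groups, two-sided, and this 1 relation tested. These permutations take the groups as independent, although arrays with the same replicate number deviated together across groups, so the p-values may be too small. Pearson's r within replicates 1, 2 and 3 was -0.32, -0.47 and -0.41 (n = 13 each). It was -0.20 without the 2 arrays whose S8H deviations lay farthest from the median deviation. Both were replicate 2 (no iron at 6 h, no phosphate at 3 h). After quantile normalization r over the 39 deviations was -0.24. Leaving out arrays picked for extreme S8H deviations can by itself shrink r, so what its size rests on was not tested.

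**Figure D3:**
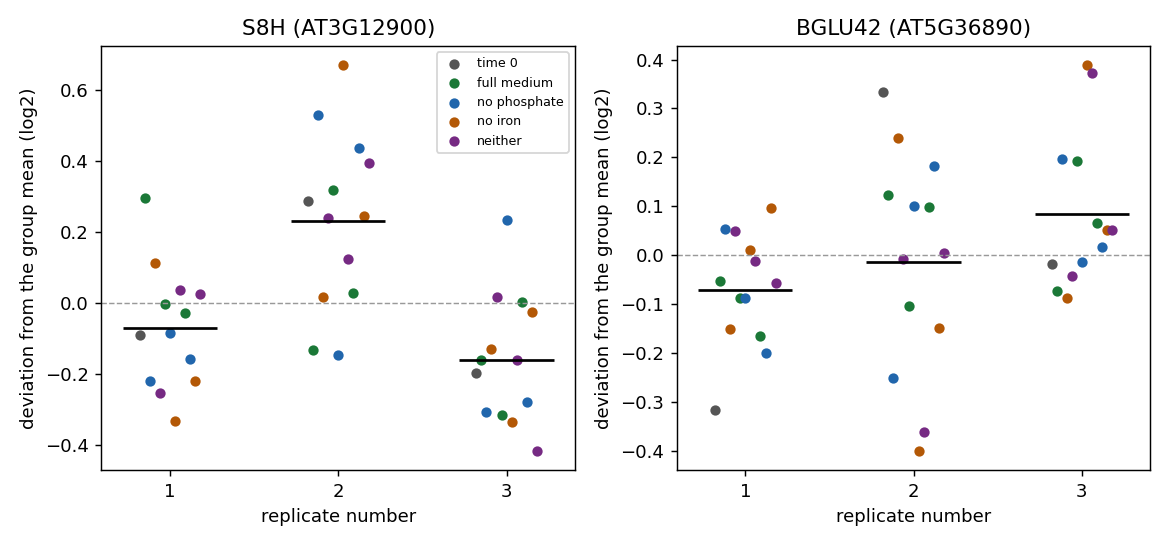
Deviation of each array from its group mean (vertical axes, log2) for S8H and BGLU42 by replicate number, coloured by medium, with a line at the mean of 13 arrays. Replicate 2 lies above 0 for S8H in most groups, with a mean of 0.23, and the spread of BGLU42 is widest in replicate 2.

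The other measured genes of coumarin synthesis and release were not called between media either. Of 11 genes on that list 7 were measured on a row naming them alone, namely F6'H2, COSY, S8H, BGLU42, BGLU21, BGLU22 and BGLU23. F6'H1, CYP82C4, ABCG37 and the methyltransferase gene CCoAOMT1 were not analysed here. In the 9 comparisons of a deprivation with full medium 0 of the 7 were called, with differences from -0.50 to 0.46. At most 0.0246% of all rows were called in any of these comparisons, so 0 of 7 says little about this list. The list's median in the mean over the times was -0.05 without phosphate, 0.01 without iron and -0.04 without both, against -0.0074, -0.0052 and -0.0047 over all rows. F6'H2, a close relative of the feruloyl-CoA hydroxylase F6'H1, differed by 0.04, -0.15 and 0.11 without iron at 3, 6 and 9 h. It was a dim row like S8H, averaging 1.77 at 3 h over all media. BGLU21, BGLU22 and BGLU23 (PYK10) are root beta-glucosidases known to hydrolyse scopolin, the glucoside of scopoletin, and BGLU21 and BGLU22 are neighbours of like sequence whose signals the probes may share. BGLU22 showed the list's lowest value, -0.50 at 3 h without both nutrients (SE 0.23, adjusted p = 0.999), which became -0.33 without replicate 2 of that group and -0.76 without replicate 1 of full medium.

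Over time, COSY, the acyltransferase that closes the coumarin ring, rose by 0.35 from 6 to 9 h in the mean of the media (SE 0.08, 1.28-fold, limma adjusted p = 0.0383), the 1 member called over time without a block, against 0.379% of all rows. It stood at 6.47 ± 0.20 (SD, n = 12) at 6 h and at 6.83 ± 0.19 at 9 h, near the 6.86 ± 0.09 (n = 3) of time 0. The call was lost without any 1 of 17 of the 24 arrays (adjusted p up to 0.0919), and the second row of COSY rose by 0.21 (adjusted p = 0.27). BGLU21 differed from time 0 by -0.51, -0.59 and -0.54 at 3, 6 and 9 h, without a call (limma adjusted p = 0.187, 0.0988 and 0.133), and with the replicate number as a block it was called lower at each time (adjusted p = 0.0449, 0.0133 and 0.025). BGLU23 was called under the block at 6 and 9 h against 3 h, as given above for PYK10. No share of all rows is given for the calls with the block. S8H and BGLU42 stood at -0.11 and 0.09 between 6 and 9 h, uncalled. HCT, a shared step of the lignin and phenylpropanoid branch, was the 1 of 11 phenylpropanoid genes measured and differed by 0.23 without both nutrients in the mean (SE 0.10, adjusted p = 1).

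Of 19 regulators of the iron response 11 were measured, and 0 were called in the 9 comparisons of a deprivation with full medium. At most 0.0246% of all rows were called in any of these comparisons. FIT and MYB72, known to act above S8H and BGLU42, were not analysed here. IMA2, an iron-responsive signalling peptide gene close to IMA1 in sequence, had the largest difference, 1.01 without iron at 9 h (SE 0.31, limma unadjusted p = 0.00325, adjusted p = 1), and 0.49 without replicate 1 of the iron-free group. BHLH101, of the bHLH Ib factors that partner FIT, differed by -0.17, 0.35 and 0.03 at 3, 6 and 9 h without iron, and BTSL1, a ligase that limits FIT, by 0.02, 0.26 and 0.03. S8H stood at -0.11, 0.21 and 0.0022 in the same comparisons. None of these was called. BHLH101 and IMA2 were dim rows as well, averaging 1.28 and 1.46 in full medium at 6 h. The first quartile of the single arrays lay between 1.60 and 1.84, so the limit given for S8H holds for them too. At 9 h IMA2 averaged 1.51 in full medium and 2.51 without iron, where its highest array stood at 3.54. BHLH121, a factor upstream of the Ib group, rose from 3 to 9 h over all media by 0.41 (SE 0.08, limma adjusted p = 0.00258), from 6.52 ± 0.24 to 6.94 ± 0.23 (SD, n = 12), against 2.88% of all rows called. Its rise from 3 to 6 h was 0.35 (adjusted p = 0.0261) and lost the call without any 1 of 6 of the 24 arrays (up to 0.07). The 12 listed genes of iron uptake and handling, IRT1 and FRO2 among them, were not analysed here.

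**Figure D4:**
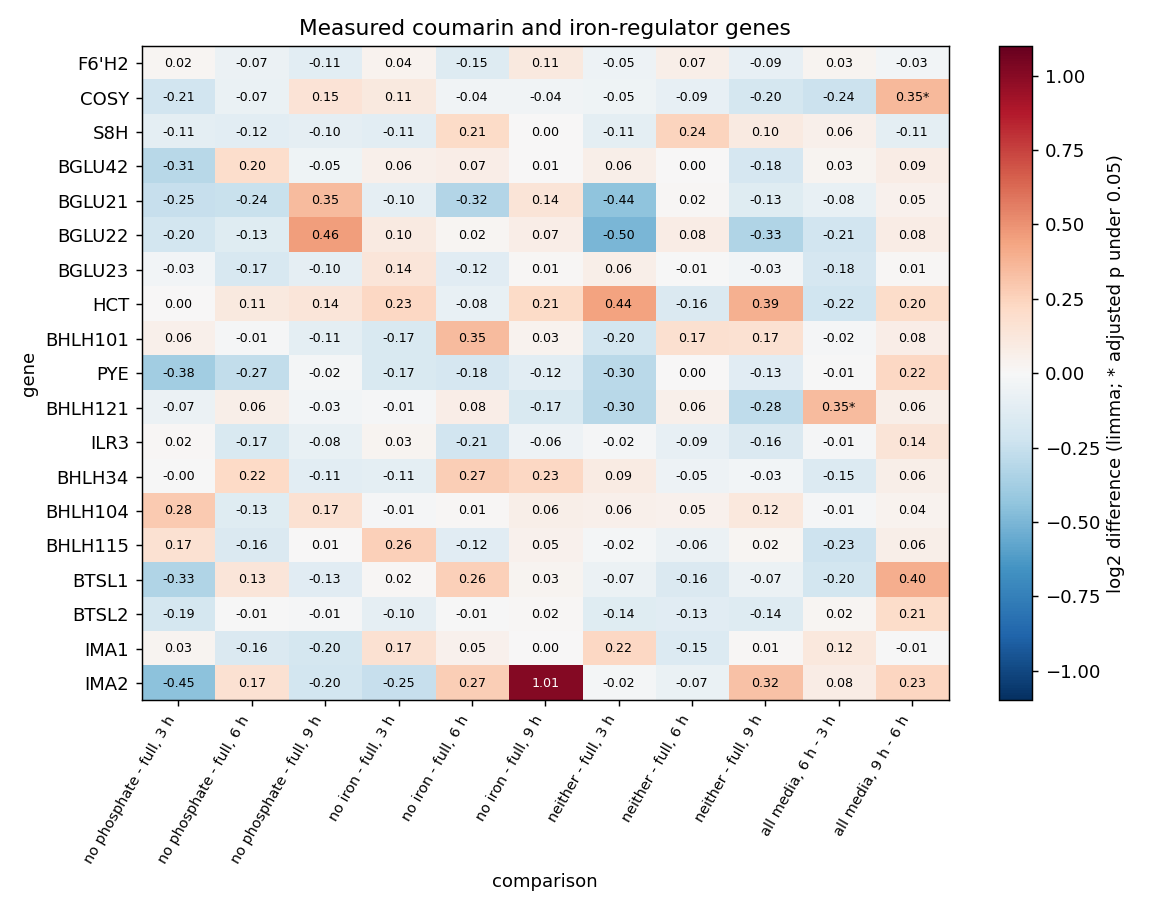
Log2 differences of the 19 measured genes of coumarin synthesis, phenylpropanoid entry and iron regulation (rows) for 9 deprivation comparisons and 2 steps in time (columns), with an asterisk where limma's adjusted p was under 0.05. The asterisks stand at COSY from 6 to 9 h and at BHLH121 from 3 to 6 h, and none stands in a deprivation column.

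Among the beta-glucosidase genes named BGLU, 22 of 40 were measured, BGLU42 included. In the 9 deprivation comparisons 0 were called, against at most 0.0246% of all rows in any of them. Differences ran from -0.51 to 1.42. The highest was BGLU25 without phosphate at 9 h, at 1.42 (SE 0.31, limma adjusted p = 0.279), and 0.79 without replicate 2 of the phosphate-free group. Several of the 22 were dim rows, which limits what they can show. BGLU19, BGLU29, BGLU36, BGLU43 and BGLU47, among others, averaged below 1.60, the lowest first quartile of an array, at every time. BGLU45 and BGLU46, which act on the glucosides of lignin precursors, fell below time 0 at 9 h in the mean of the media, by 1.04 (SE 0.29, adjusted p = 0.0365) and by 0.63 (SE 0.17, adjusted p = 0.0347). These were the 2 of 22 called there, both lower, against 3.03% of all rows in either direction. BGLU45 went from 3.35 ± 0.35 (n = 3) to 2.31 ± 0.34 (SD, n = 12), and BGLU46 from 6.82 ± 0.03 to 6.19 ± 0.17. Leaving out single arrays ended the call of BGLU45 for 6 of 15 arrays and that of BGLU46 for 7. The limma adjusted p reached 0.259 for BGLU45 without replicate 3 of time 0 and 0.17 for BGLU46 without replicate 1 of time 0. BGLU42 stood at 0.23 in that comparison.

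The genes whose pattern over the 13 group means was most like a member were sought among rows naming 1 gene and at or above the median level, 7410 for S8H and 7409 for BGLU42. For S8H they were AT4G16900, AT2G44730, AT5G04853, AT1G78690 and AT5G62770, with Pearson's r from 0.73 to 0.83 over the group means. Over the 39 arrays the r of these same genes ran from -0.15 to 0.65, so AT2G44730 and AT1G78690 (-0.13 and -0.15) did not follow S8H from array to array. For BGLU42 they were AT5G14790, AT3G02420, AT4G28550, AT1G04200 and AT4G15080, with r from 0.86 to 0.89 over the group means and from 0.27 to 0.59 over the arrays. Ranked over the 39 arrays instead, AT5G04853 was the 1 gene to appear in both lists of S8H (0.65), and none of the 5 leading BGLU42 did, where AT2G35040 (0.75) and the ascorbate synthesis gene GLDH (0.72) led. These are the highest values among all candidate rows, over 13 group means that share replicate numbers, with both genes read on the same arrays. None of these rows was called in limma's F test among the groups (adjusted p from 0.194 to 1).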

How the data were processed

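Root RNA was hybridised to whole-transcript arrays from 100 ng of total RNA per sample, per the labels' protocols. The authors deposited 1 log2 value per array and row, made with GCRMA, Affymetrix Expression Console and Transcriptome Analysis Console per the submitters' processing notes. GCRMA models background from probe base content, quantile-normalizes the arrays and combines probes into rows. Versions are not given in the sources used here, and the log base is inferred. Rows were named through the platform annotation (16746 rows with 1 gene, 758 with several, 10997 unnamed), with symbols from RefSeq TAIR10.1. A gene with several rows is given by its brightest row.

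A linear model with 13 group means and no block was fitted to all 39 arrays (limma 3.58.1, R 4.3.3, lmFit and eBayes), with 42 contrasts, each adjusted over 28501 rows. No filter on dim rows was set. The model was tested on simulated data, whose settings and outcome are not given here. Permutations used numpy, and the number of arrays limits the precision. Any 2 arrays differed: root-mean-square differences were at least 0.299, with a median of 0.431 between replicates. Between groups, deviations from the group means correlated at 0.26 for arrays with the same replicate number. The -0.13 for other numbers largely follows from that value, because the deviations within a group cancel out. Every pair exceeded 0.1 in 10 of 18 two-group comparisons. In these the numbers pair the arrays by that criterion. The values printed, with their SEs, intervals and shares of all rows called, come from the fit without a block and so leave this pairing out. For the named genes, adjusted p-values with the block are given where a call changed. Alternatives were the replicate block, the compared groups alone, quantile normalization, median centring, a filter on dim rows, a variance trend and leaving out each array. The members, the gene lists and the rule for the genes named were chosen with earlier results of these data known. The named genes are the members, the measured coumarin and regulator genes, called or extreme members of the other lists, and the 5 genes most like each member.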

Additional observations from a re-analysis of the deposited data

How the results depend on the processing

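S8H and BGLU42 stayed without a call in all 42 contrasts under every alternative that could be run. S8H had 210 values and BGLU42 252 over the alternative settings, the lowest limma adjusted p being 0.27 and 0.421. Leaving out 1 array at a time gave 531 values for each gene, with a lowest adjusted p of 0.366 for S8H and 0.201 for BGLU42. Under the other settings limma's unadjusted p was under 0.05 for 1 value of S8H and 6 of BGLU42. With an array left out it was so for 1 and 5. The sign of an uncalled difference changed in 6 and 5 of the values under other settings and in 59 and 43 of those with an array left out. The replicate block left the estimates as they were and called neither gene: S8H at 9 h over all media stood at -0.34 from time 0 with the block (limma adjusted p = 0.27), and BGLU42 at 0.23 (0.421). With the replicate block BGLU21 was called lower than time 0 at 3, 6 and 9 h over all media (adjusted p = 0.0449, 0.0133 and 0.025), BGLU44 higher (0.0124, 0.00247 and 0.0155) and BTSL1 lower at 6 h (0.037), BGLU23 lower at 6 and 9 h than at 3 h (0.0418 and 0.0361) and BGLU45 lower than time 0 at 3 and 6 h and in full medium at 9 h (0.0348, 0.0114 and 0.00986), which the fit without it did not call. At 9 h against time 0 the replicate block called 4 of the 22 BGLU genes, 1 higher and 3 lower, against 2 lower without it. The share of all rows called with the block is not given here, so these calls are not read as particular to the named genes. The block ended none of the calls given for COSY, BHLH121, BGLU45 and BGLU46, whose alternatives, with those of BGLU22, IMA2 and BGLU25, were added after the data were seen. Quantile normalization and the fit of the compared groups alone ended the call of COSY from 6 to 9 h (adjusted p = 0.0676 and 0.075). The cause of these changes was not tested. The filter on dim rows removed S8H, which has no value there. No member has a second row, so that alternative was not run. Dim signal limits what S8H can show.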

Other observations

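BGLU44, a beta-glucosidase gene chosen after its values were seen, spread widely within groups. It averaged 3.57 ± 0.72 (SD, n = 3) at time 0 and 5.27 ± 1.18, 5.53 ± 1.46 and 5.17 ± 1.12 (n = 12) at 3, 6 and 9 h over all media. The differences of 1.71, 1.96 and 1.61 were not called by limma without the replicate block (adjusted p = 0.395, 0.301 and 0.408). BGLU42 differed from time 0 by 0.12, 0.15 and 0.23 in the same 3 comparisons.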
